A study of Homo sapiens with 24 samples.

Results

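The 10 genes described here are the aryl hydrocarbon receptor AHR, its partner ARNT, 2 repressors of the receptor (AHRR and TIPARP) and 6 enzymes of drug metabolism that the receptor is known to induce (CYP1A1, CYP1A2, CYP1B1, NQO1, ALDH3A1 and UGT1A6). They were picked by symbol, as AHR and its known targets, out of 58735 genes counted in HCT116 cells, a human colorectal carcinoma line. Auxin, the compound added to these cells to degrade tagged proteins, is indole-3-acetic acid, and indole compounds are known to activate this receptor, so the question was what these genes did between day 0 and day 4 of auxin in untagged and in tagged cells. All 10 were found in the count tables, and 8 had enough reads to be tested in every comparison. CYP1A2 and UGT1A6 did not.

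Polyadenylated RNA was sequenced from 4 lines at day 0 and day 4, in 8 groups of 3 libraries, 24 libraries in all. WT cells carried the plant F-box protein OsTIR1, inducible by doxycycline, and no degron tag. UHRF1-AID cells had UHRF1 tagged at its C terminus with mAID and mClover, DNMT1-AID cells had DNMT1 tagged at its N terminus with mAID and mRuby2, and UHRF1-AID/DNMT1-AID cells, the double degron line, had both tags, all on the same OsTIR1 background. UHRF1 recruits the maintenance DNA methyltransferase DNMT1 to newly copied DNA. Each degron line was represented by 3 clones, while nothing said whether the WT libraries came from separate cultures, so p-values for WT measure only the spread between those libraries. Day 4 cells received doxycycline at 2 µg/mL with 20 µM auxinole, an inhibitor of OsTIR1, before auxin, and then doxycycline at 2 µg/mL with 500 µM auxin. Day 0 cells were taken before auxin. Day 4 therefore differed from day 0 by auxin, time in culture and possibly doxycycline and auxinole, which cannot be told apart here.

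AHR is a transcription factor of the bHLH-PAS family that waits in the cytoplasm in a complex with the chaperone HSP90 and the co-chaperone PTGES3. When a ligand binds, it moves to the nucleus, pairs with ARNT and binds short DNA motifs called dioxin response elements near its targets. The cytochrome P450 genes CYP1A1 and CYP1B1 are the best known of these targets. AHRR competes with the receptor for ARNT and for DNA, and TIPARP, a mono-ADP-ribosyltransferase, limits the receptor by modifying it, so that both close a negative feedback loop.

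In the hg38 coordinates of the files, AHR lies at chr7:16916359-17346152 on the plus strand (ENSG00000106546) and ARNT at chr1:150809705-150876768 on the minus strand (ENSG00000143437). AHRR lies at chr5:304176-438291 on the plus strand (ENSG00000063438) and TIPARP at chr3:156673235-156706770 on the plus strand (ENSG00000163659). CYP1A1 (chr15:74719542-74725610, minus strand, ENSG00000140465) and CYP1A2 (chr15:74748844-74756202, plus strand, ENSG00000140505) are neighbours that point away from each other, and CYP1B1 lies at chr2:38066973-38109902 on the minus strand (ENSG00000138061). NQO1 lies at chr16:69706996-69726951 on the minus strand (ENSG00000181019), ALDH3A1 at chr17:19737984-19748943 on the minus strand (ENSG00000108602) and UGT1A6 at chr2:233691607-233773300 on the plus strand (ENSG00000167165). Each count is the sum over all exons of the gene, introns left out.

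The core of the dioxin response element was searched on both strands, as GCGTG or as CACGC on the other strand, around the starts of these genes. RefSeq promoters (build GRCh38.p14) were at hand for 8 of the genes with 12 starts, and there was no entry for CYP1B1 or ALDH3A1. Within the 300 bases of a table entry, 7 of the 12 starts held the motif, against 36.5% of all 35116 promoters. In the 1500 bases before the start, CYP1A1 held 10 matches, a number reached by 0.6% of all promoters, whose median was 1. Starts 1 and 2 of TIPARP held 6 matches each, a number reached by 5.9% of promoters, and start 3 held 2, reached by 48.9%. The starts of AHRR held 4 and 8, reached by 18.5% and 1.8%. The 6 matches of TIPARP starts 1 and 2 were the same sites, most of them in annotated exons. The starts of AHRR also shared matches, so these are not separate counts. ARNT held 5 matches, reached by 10.6% of promoters, NQO1 held 2, CYP1A2 and each start of UGT1A6 held 1 and AHR held 0. The stretches that follow show where the motif was most frequent outside annotated exons before CYP1A1, an enzyme, and before the first start of AHRR, a repressor, both genes that were higher at day 4. They cover chr15:74726499-74726798 on the minus strand, 1270 to 971 bases before the start of CYP1A1, and chr5:321080-321379 on the plus strand, 634 to 335 bases before the start of AHRR, and capitals mark each match. A match is a description of the sequence and no evidence of binding in these cells.
CYP1A1: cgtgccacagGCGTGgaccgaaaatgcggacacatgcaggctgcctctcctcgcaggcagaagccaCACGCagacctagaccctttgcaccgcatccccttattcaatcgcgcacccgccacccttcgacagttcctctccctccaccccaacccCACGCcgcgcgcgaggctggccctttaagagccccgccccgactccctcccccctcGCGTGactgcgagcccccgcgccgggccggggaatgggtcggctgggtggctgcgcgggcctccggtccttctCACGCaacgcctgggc
AHRR: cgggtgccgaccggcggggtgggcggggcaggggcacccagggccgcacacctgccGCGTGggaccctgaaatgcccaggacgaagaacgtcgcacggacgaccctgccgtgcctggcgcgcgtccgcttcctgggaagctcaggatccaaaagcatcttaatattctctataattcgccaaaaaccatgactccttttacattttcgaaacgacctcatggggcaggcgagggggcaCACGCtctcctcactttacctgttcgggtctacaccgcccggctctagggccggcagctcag

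Gene counts ran from 15824804 to 25073821 per library. Levels are given as CPM (a gene's counts relative to the library's total) scaled by the trimmed mean of M-values, log2 fold changes are from edgeR's quasi-likelihood test over all genes tested, and a gene was called when its Benjamini-Hochberg adjusted p was under 0.05 and its log2 fold change was above 1 in size. Epithelial markers were present in all libraries (EPCAM at 333 to 600.2 CPM, KRT8 at 1611 to 3245), whereas VIL1 and LGR5 were at or near 0. The blood marker PTPRC stayed at or below 0.731 CPM, and the endothelial markers PECAM1 and VWF at or below 1.46 and 1.02 CPM. COL1A2 and ALB reached at most 0.19 and 0.13 CPM. The fibroblast marker COL1A1 was found in every library, at 1.3 to 19.3 CPM. The count table headers placed 15 libraries in 1 alignment folder (all day 0 libraries and the day 4 libraries of UHRF1-AID) and the other 9 libraries in another folder, and only those 9 held spike-in counts (0.891% to 1.65%). The folder therefore goes with day in WT, DNMT1-AID and the double degron line, where folder and day cannot be told apart, and the UHRF1-AID comparison lies within 1 folder. Spearman's rho was taken across genes between gene length and a library's log2 CPM minus the gene's mean over all 24 libraries, a trend relative to the other libraries. At day 0, WT replicate 3 and DNMT1-AID replicates 1 and 2 stood apart by a negative trend (rho -0.139, -0.148 and -0.118, against 0.0394 to 0.25 in the other day 0 libraries). At day 4 this rho ran from -0.174 to 0.151. It lay between -0.174 and -0.145 in the day 4 libraries of the double degron line, against 0.0394 to 0.0766 at day 0, and at -0.126 in UHRF1-AID day 4 replicate 2, against 0.151 and 0.103 in replicates 1 and 3. With the trend removed, AHRR, TIPARP and CYP1B1 were still called higher in all 4 lines and CYP1A1 in the 3 degron lines.

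TIPARP, AHRR and CYP1B1 were called higher at day 4 in all 4 lines, and CYP1A1 in the 3 degron lines. In WT, CYP1A1 was also higher, but below the fold minimum (log2 fold change 0.85, adjusted p = 0.0156 in edgeR). Of 8 genes tested, 3 were called higher in WT (TIPARP, AHRR and CYP1B1), against 5.37% of all 13601 genes tested there. In each degron line 4 were called higher (the same 3 and CYP1A1), against 15.1% of genes in UHRF1-AID/DNMT1-AID, 12.1% in UHRF1-AID and 8.62% in DNMT1-AID. Genes called lower were AHR in WT and ALDH3A1 in the double degron line and in DNMT1-AID, against 6.53%, 11.5% and 6.68% of all genes, and none of the 8 in UHRF1-AID, where 9.82% of all genes were called lower. The plots of levels by library and of day effects show these values.

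**Figure D1:**
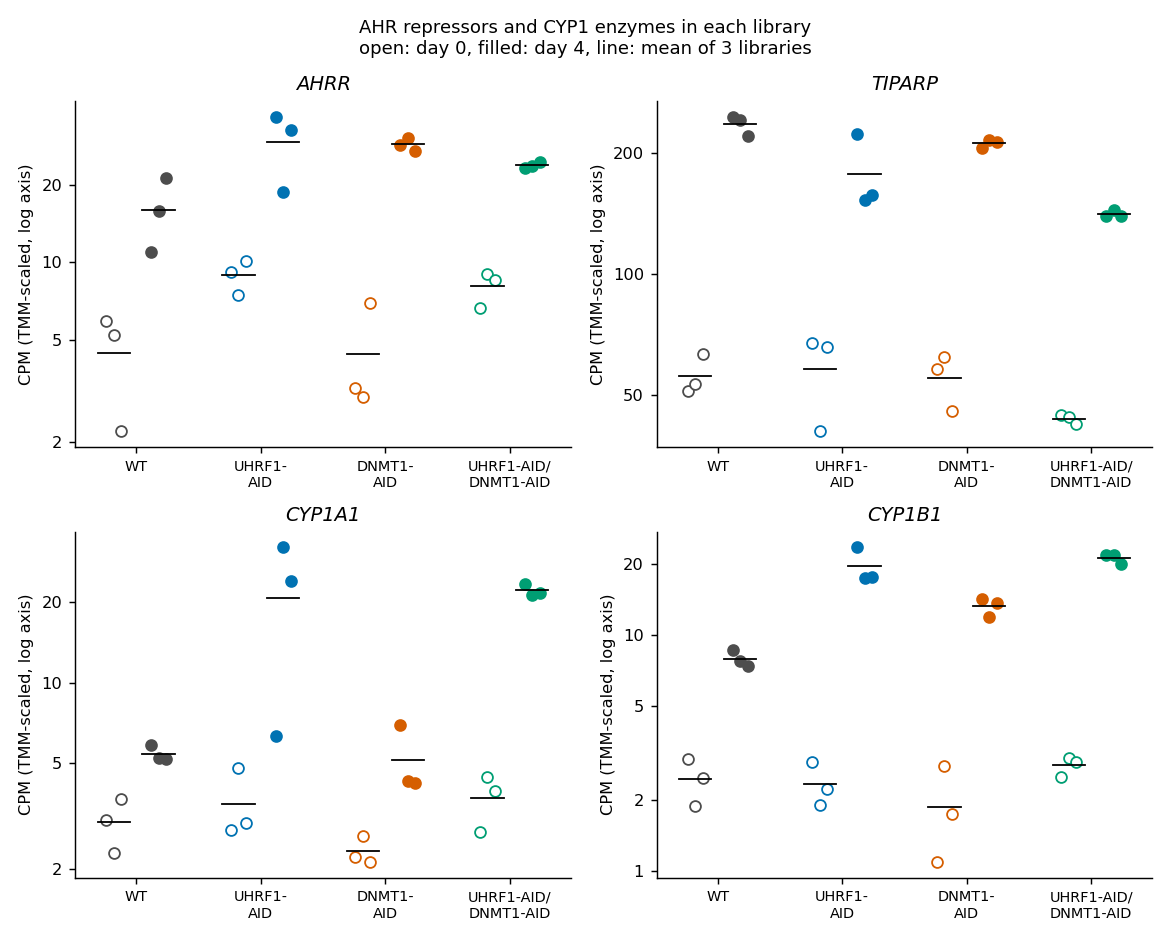
Level of AHRR, TIPARP, CYP1A1 and CYP1B1 (CPM, log axis) in each of 24 libraries, by line, with open points for day 0, filled points for day 4 and a line at the mean of 3 libraries. In every line and for each of the 4 genes the 3 day 4 libraries lie above the 3 day 0 libraries, and CYP1A1 at day 4 ranges from 4.22 to 6.93 CPM in WT, DNMT1-AID and replicate 1 of UHRF1-AID but from 21.3 to 32.1 CPM in the other 5 libraries.

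TIPARP was the most abundant of the genes called higher. In WT it was at 51.1, 53.1 and 63.2 CPM at day 0 and at 247, 242 and 220 CPM at day 4, a log2 fold change of 2.09 ± 0.12 (SE, n = 3 libraries per group, as for all log2 values given; adjusted p = 1.42e-05). In UHRF1-AID it was at 67.3, 40.6 and 65.8 CPM and then at 223, 153 and 157 CPM (log2 fold change 1.64 ± 0.21, adjusted p = 0.000337). The day 4 libraries lay above all day 0 libraries in both lines. DNMT1-AID went from 58, 62.1 and 45.4 CPM to 205, 216 and 213 CPM (1.96 ± 0.13, adjusted p = 6.77e-06). UHRF1-AID/DNMT1-AID went from 44.4, 44 and 42.2 CPM to 140, 144 and 139 CPM (1.74 ± 0.07, adjusted p = 1.65e-12). No day 4 library of any line overlapped the day 0 libraries of that line. Libraries that did not overlap and were higher at day 4 were found for 24.1% of all genes in WT, 35.2% in UHRF1-AID/DNMT1-AID, 30.5% in UHRF1-AID and 25.4% in DNMT1-AID. TIPARP shared 0.73% of its exon bases with its antisense neighbour TIPARP-AS1.

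AHRR, the repressor named after the receptor, started from a low level. In WT it was at 5.9, 5.22 and 2.2 CPM at day 0 and at 11, 15.8 and 21.4 CPM at day 4 (log2 fold change 1.85 ± 0.41, adjusted p = 0.0126). Its lowest day 0 value was that of replicate 3, which stood apart, and without that library the log2 fold change was 1.53 (adjusted p = 0.00486). With the replicate number as a block the value was 1.88 and no longer passed (adjusted p = 0.0967). In UHRF1-AID it went from 9.2, 7.47 and 10.1 CPM to 37.1, 18.8 and 32.9 CPM (1.75 ± 0.25, adjusted p = 0.000415). The largest difference was in DNMT1-AID, from 3.22, 2.98 and 6.93 CPM to 28.8, 30.7 and 27.2 CPM (2.74 ± 0.31, adjusted p = 0.000200). The 2 low day 0 values there belonged to the 2 libraries that stood apart, and leaving out either gave 2.56 (replicate 1) or 2.52 (replicate 2), while leaving out replicate 3 gave 3.24, all still called. UHRF1-AID/DNMT1-AID went from 6.66, 8.98 and 8.57 CPM to 23.3, 23.8 and 24.7 CPM (1.61 ± 0.12, adjusted p = 2.99e-09). Day 0 and day 4 libraries did not overlap in any of the 4 lines, beside the shares of all genes given for TIPARP. The part of library quality in the spread at day 0 was not tested. AHRR shared 3.18% of its exon bases with PDCD6.

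CYP1B1, an enzyme that oxidises oestrogens and polycyclic hydrocarbons, rose in every line. In WT it went from 2.98, 1.89 and 2.48 CPM to 8.67, 7.76 and 7.4 CPM, a log2 fold change of 1.70 ± 0.21 (adjusted p = 0.000654). In UHRF1-AID it went from 2.9, 1.91 and 2.22 CPM to 23.6, 17.4 and 17.7 CPM (3.09 ± 0.22, adjusted p = 1.5e-05). All day 4 values of UHRF1-AID were thus above 17 CPM, while none in WT reached 9 CPM. DNMT1-AID went from 1.09, 2.78 and 1.74 CPM to 14.2, 12 and 13.8 CPM (2.85 ± 0.30, adjusted p = 7.2e-05). UHRF1-AID/DNMT1-AID went from 2.5, 3.02 and 2.91 CPM to 21.9, 21.9 and 20.1 CPM (2.96 ± 0.14, adjusted p = 6.51e-12). No day 4 library overlapped the day 0 libraries of its line, beside the shares of all genes given for TIPARP. CYP1B1 shared 13.02% of its exon bases with other annotated genes, mostly the antisense CYP1B1-AS1, and the strand setting of the counting was not given, so reads of the pair cannot be told apart in those bases.

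CYP1A1, the classical readout of an active receptor, behaved less evenly. In WT it went from 3.07, 2.3 and 3.66 CPM to 5.87, 5.24 and 5.17 CPM, a log2 fold change of 0.85 ± 0.22 that passed the p threshold (adjusted p = 0.0156) but not the fold minimum. Genes that were higher at an adjusted p under 0.05, at any fold, made up 17.7% of genes tested in WT. Without day 0 replicate 3 of WT, the library that stood apart, the value was 1.00 and was called (adjusted p = 0.00386). Without day 0 replicate 1, day 0 replicate 2 or day 4 replicate 1 the adjusted p was 0.0518, 0.0649 or 0.0536. With all 24 libraries in 1 fit it was 0.0938. In DNMT1-AID, CYP1A1 went from 2.23, 2.68 and 2.13 CPM to 6.93, 4.29 and 4.22 CPM (1.15 ± 0.28, adjusted p = 0.00864). That call rested on day 4 replicate 1, without which the log2 fold change was 0.88 (adjusted p = 0.0542). In UHRF1-AID it went from 2.8, 4.79 and 2.99 CPM to 6.33, 32.1 and 24 CPM (2.59 ± 0.55, adjusted p = 0.00503). Here replicate 1 stayed close to the WT level and the other 2 libraries were several times higher, and without replicate 1 of day 4 the log2 fold change was 3.02 ± 0.26. Without replicate 2 of day 4, the highest library, it was 2.10 ± 0.63 (adjusted p = 0.0432), and with no filter on low counts the call was lost (2.57, adjusted p = 0.0781). Replicate 2, whose trend with gene length was negative, had the highest CYP1A1 and the lowest AHRR and TIPARP of the 3 libraries, and CYP1A1 was 2.52 ± 0.58 with the trend removed (adjusted p = 0.0102). The same replicate 1 had the highest AHRR, TIPARP, CYP1B1 and ARNT of the 3 libraries. In UHRF1-AID/DNMT1-AID all day 4 libraries were high, from 2.76, 4.45 and 3.91 CPM to 23.5, 21.3 and 21.7 CPM (2.62 ± 0.15, adjusted p = 8.92e-11). CYP1A1 shared no exon base with another gene.

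CYP1A2, the liver form of the family and the neighbour of CYP1A1, was close to absent. It had 0 counts in 14 of 24 libraries and 45 counts in all, too few for a test. At day 0 its counts were 0 in all libraries of UHRF1-AID and DNMT1-AID, 0, 0 and 2 in WT, and 0, 0 and 2 in UHRF1-AID/DNMT1-AID. At day 4 they were 0, 0 and 1 in WT, 1, 0 and 2 in DNMT1-AID, 0, 6 and 18 in UHRF1-AID, and 4, 2 and 7 in the double degron line. The libraries above 3 counts were thus 4 day 4 libraries of cells with a UHRF1 tag, and the UHRF1-AID library at 0 was replicate 1, the one with low CYP1A1. A count of 0 allows up to 3 counts in a library, or 0.121 to 0.195 CPM here, and covers counting error only. UGT1A6, which attaches glucuronic acid to drugs, had 0 counts in all 24 libraries. It shared 64.44% of its exon bases with 10 other annotated genes, mostly of the UGT1A locus, and how reads shared by genes were counted was not given, so a level of 0 is uncertain.

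**Figure D2:**
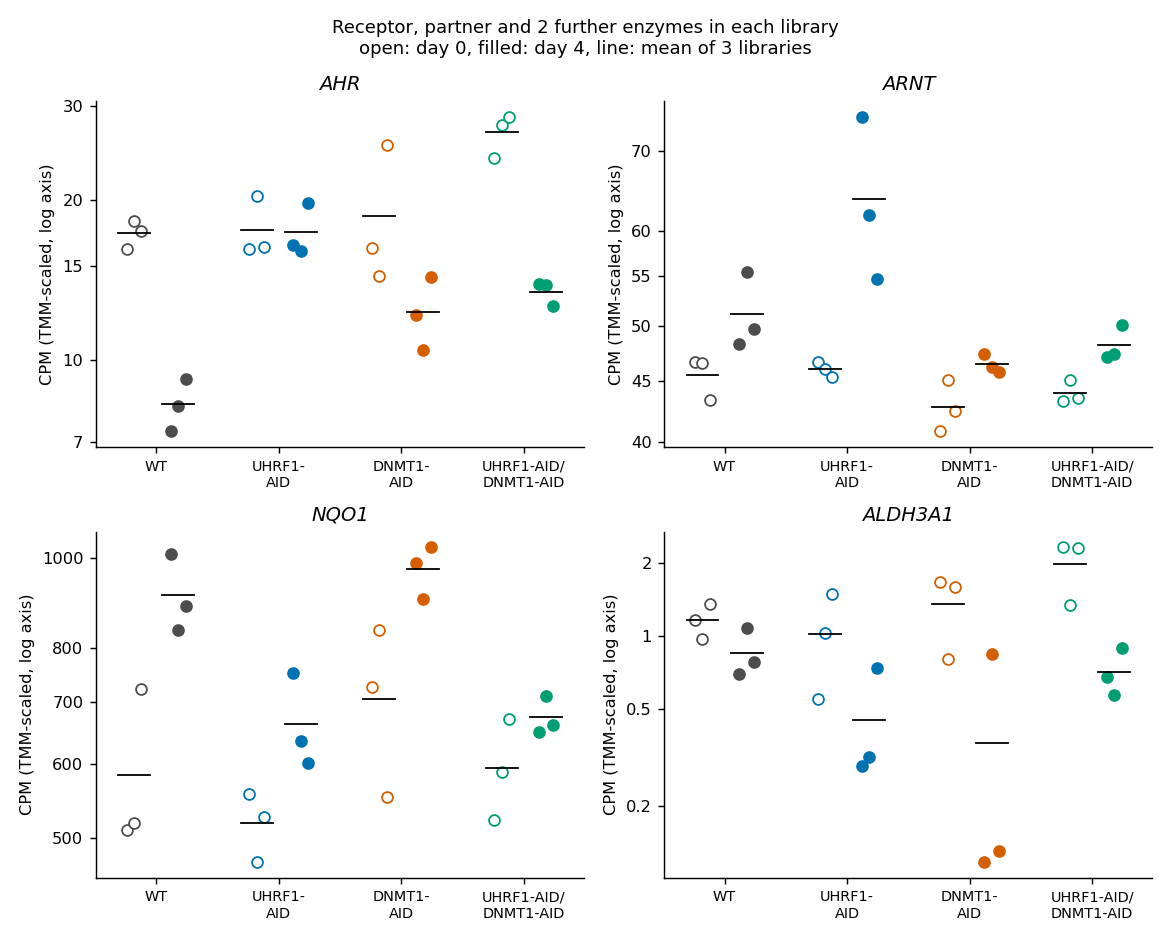
Level of AHR, ARNT, NQO1 and ALDH3A1 (CPM, log axis) in each of 24 libraries, by line, with open points for day 0, filled points for day 4 and a line at the mean of 3 libraries. AHR at day 4 lies below day 0 in WT, DNMT1-AID and UHRF1-AID/DNMT1-AID and overlaps it in UHRF1-AID, and ARNT at day 4 lies between 45.8 and 74.7 CPM.

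The receptor itself was not called higher in any line. In WT, AHR went from 16.2, 18.2 and 17.5 CPM to 7.33, 8.19 and 9.2 CPM, a log2 fold change of -1.06 ± 0.16 (adjusted p = 0.00132). The size lay near the fold minimum and was below it without day 4 replicate 1 (-0.97, adjusted p = 0.00834) or after removal of the gene length trend (-0.96). In UHRF1-AID/DNMT1-AID it went from 24, 27.7 and 28.7 CPM to 13.9, 13.8 and 12.6 CPM (-0.95 ± 0.11, adjusted p = 3.95e-07). The p threshold was passed there and the fold minimum was not, except without day 0 replicate 1 (-1.02), and genes lower at an adjusted p under 0.05, at any fold, made up 32.5% of genes tested. In DNMT1-AID, AHR was at 16.2, 14.4 and 25.4 CPM and then at 12.1, 10.5 and 14.3 CPM (-0.58 ± 0.23, adjusted p = 0.0685, and 0.0310 without day 0 replicate 2). The adjusted p there was 0.0147 with no filter on low counts and 0.00921 with all 24 libraries in 1 fit. Over all alternatives it reached 0.205. Day 4 libraries lay below all day 0 libraries in these 3 lines, as they did for 24.6%, 36.5% and 28.5% of all genes in WT, UHRF1-AID/DNMT1-AID and DNMT1-AID. In UHRF1-AID the groups overlapped, at 16.1, 20.3 and 16.3 CPM and then 16.5, 16 and 19.8 CPM (0.01 ± 0.16, 95% interval -0.36 to 0.38, adjusted p = 0.962). The 3 lines in which AHR was lower were those whose day 4 libraries lay in the other alignment folder, and the part of the folder was not tested. The counted AHR model shared 32.27% of its exon bases with other annotated genes.

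ARNT, the partner, moved little. Its log2 fold change was 0.17 ± 0.11 in WT (from 46.6, 46.6 and 43.4 to 48.3, 55.4 and 49.7 CPM), 0.14 ± 0.11 in DNMT1-AID and 0.18 ± 0.08 in the double degron line. The adjusted p was 0.256, 0.354 and 0.0543. In the double degron line it was 0.00866 with the gene length trend removed, 0.0391 with RLE scaling and 0.0434 with at least 10 counts in every library. In UHRF1-AID, ARNT went from 46.6, 46.1 and 45.3 CPM to 74.7, 61.9 and 54.7 CPM (0.49 ± 0.13, adjusted p = 0.0126). That passed the p threshold at any fold, as did 26.5% of genes there in that direction. Without day 0 replicate 3 of UHRF1-AID the adjusted p was 0.0596. ARNT day 4 libraries lay above the day 0 libraries in each of the 4 lines. That held for 24.1% of all genes in WT, 25.4% in DNMT1-AID, 30.5% in UHRF1-AID and 35.2% in the double degron line.

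NQO1, a quinone reductase that responds to both AHR and the oxidative stress factor NRF2, was the most abundant of the 10 genes at 179 ± 37 CPM per kilobase in WT at day 0 (SD, n = 3), against 11 ± 1.3 for TIPARP, 6.99 ± 0.28 for ARNT, 2.14 ± 0.13 for AHR and under 1 for the others. It rose by less than the fold minimum in all 4 lines. WT went from 509.6, 518.9 and 722.9 CPM to 1010.0, 838.0 and 889.0 CPM (log2 fold change 0.65 ± 0.16, adjusted p = 0.0128). DNMT1-AID (0.49 ± 0.16, adjusted p = 0.0286), UHRF1-AID (0.38 ± 0.12, adjusted p = 0.0239) and the double degron line (0.23 ± 0.09, adjusted p = 0.0299) followed, where 19.5%, 26.5% and 35.2% of all genes were higher at an adjusted p under 0.05. Groups overlapped only in UHRF1-AID/DNMT1-AID. Day 4 libraries above all day 0 libraries were found for 24.1% of all genes in WT, 25.4% in DNMT1-AID and 30.5% in UHRF1-AID. Each of these values lost the p threshold without some single libraries. The adjusted p was up to 0.0551 in WT (without day 0 replicate 1 or 2 or day 4 replicate 1) and up to 0.0911 in DNMT1-AID (without day 0 replicate 1 or any 1 day 4 library). It was up to 0.105 in UHRF1-AID (without day 0 replicate 2 or 3 or day 4 replicate 1) and up to 0.197 in the double degron line (without day 0 replicate 1 or 2 or day 4 replicate 2). With the gene length trend removed it was 0.0505 in UHRF1-AID and 0.0699 in the double degron line. With all 24 libraries in 1 fit it was 0.0512 in UHRF1-AID and 0.171 in the double degron line. With no filter on low counts it was 0.0559 in the double degron line. An antisense gene covered 17.67% of its exon bases.

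ALDH3A1, an aldehyde dehydrogenase induced by AHR ligands in many epithelia, was lower at day 4 where it was called. It was near the detection limit throughout, at 53 counts or fewer per library. In UHRF1-AID/DNMT1-AID it went from 2.32, 1.34 and 2.31 CPM to 0.676, 0.57 and 0.894 CPM (log2 fold change -1.43 ± 0.38, adjusted p = 0.00272). The groups did not overlap there, as held in that direction for 36.5% of all genes in that line. In DNMT1-AID it went from 1.66, 0.808 and 1.6 CPM to 0.117, 0.846 and 0.13 CPM (-1.85 ± 0.66, adjusted p = 0.0462), with groups that overlapped. That call was lost with the replicate block (adjusted p = 0.0741) and without day 0 replicate 1 (0.128), day 0 replicate 3 (0.0547), day 4 replicate 1 (0.154) or day 4 replicate 3 (0.159). Its log2 fold change was -1.15 ± 0.51 in UHRF1-AID (adjusted p = 0.0868, and 0.0410 without day 4 replicate 3) and -0.43 ± 0.32 in WT (adjusted p = 0.324), with groups that overlapped in both. Day 4 libraries below all day 0 libraries were found for 29.6% of all genes in UHRF1-AID.

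**Figure D3:**
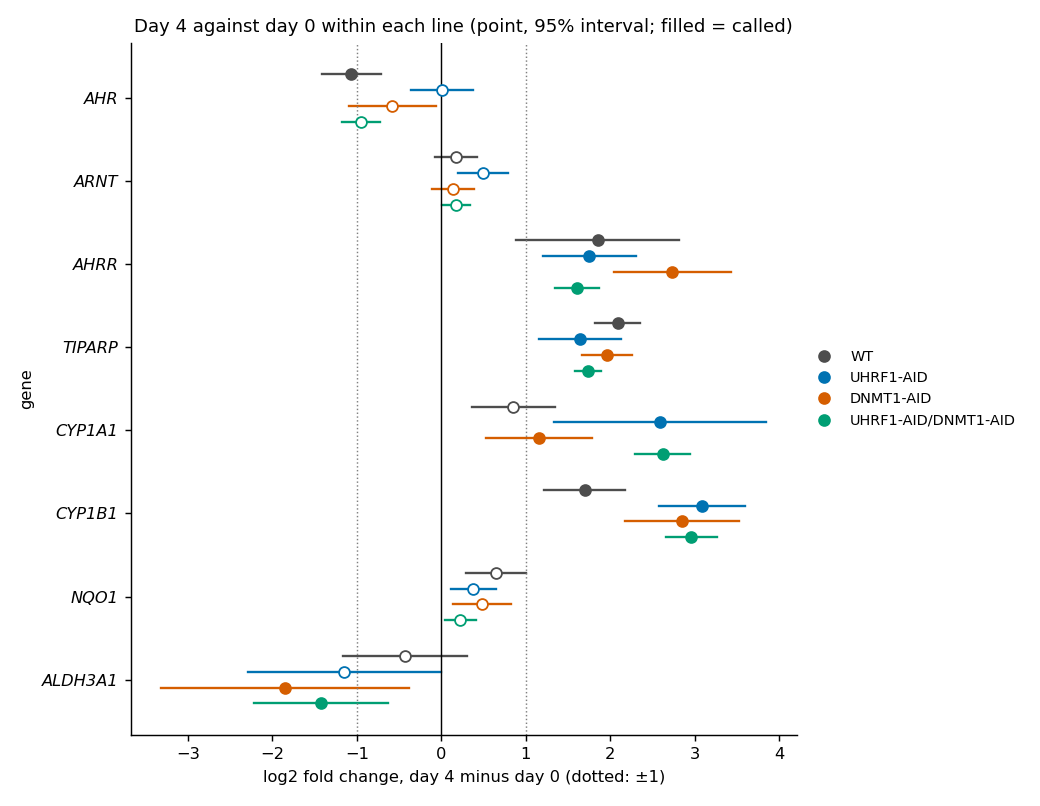
Log2 fold change of day 4 against day 0 in each of 4 lines for the 8 genes tested, with 95% intervals from edgeR and filled points for called genes. AHRR, TIPARP, CYP1A1 and CYP1B1 lie right of 0 in all 4 lines, with CYP1A1 at 0.85 in WT and 2.62 in UHRF1-AID/DNMT1-AID, while AHR lies between -1.06 and 0.01.

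Whether degron cells responded differently from WT was tested as the difference between the day effect of a degron line and that of WT. In UHRF1-AID/DNMT1-AID, 2 of 8 genes were called, both higher, against 5.41% of all 15016 genes tested. CYP1A1 rose by 1.72 ± 0.27 more than in WT on the log2 scale (95% interval 1.15 to 2.29, adjusted p = 0.000821). CYP1B1 rose by 1.22 ± 0.24 more (0.70 to 1.73, adjusted p = 0.00376). Both stayed called under each alternative tried. TIPARP had a day effect smaller than that of WT by 0.40 (difference -0.40 ± 0.12, adjusted p = 0.0375), within the fold minimum, and 9.12% of genes were lower at that p threshold. That value was fragile, with an adjusted p between 0.00456 and 0.322 over the alternatives, and above 0.05 under every other scaling, filter, block or tool tried and without any single library other than WT day 0 replicate 3 or WT day 4 replicate 3. The alignment folder changed with day in the same way in WT and in UHRF1-AID/DNMT1-AID.

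In DNMT1-AID none of the 8 day effects differed from that of WT in edgeR, where 0.139% of all 14370 genes were called. DESeq2 called 0 of the 8. An unadjusted p under 0.05 in edgeR was found for 1 of the 8, and for 1829 of the 14370 genes. CYP1B1 was the nearest (difference 1.16 ± 0.38, 95% interval 0.35 to 1.97, adjusted p = 0.261), a difference of about the size found in the double line with a wider interval, and it was called when no filter on low counts was used (adjusted p = 0.0425). CYP1A1 differed by 0.30 ± 0.35 (-0.44 to 1.05, adjusted p = 0.707). AHRR differed by 0.89 ± 0.56 (-0.35 to 2.12, adjusted p = 0.50).

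In UHRF1-AID, CYP1B1 (difference 1.35 ± 0.30, 95% interval 0.69 to 2.00, adjusted p = 0.0306) and AHR (1.03 ± 0.21, 0.57 to 1.49, adjusted p = 0.0220) were called, against 2.27% of all 14846 genes. Neither was called with the replicate number as a block within each line (adjusted p = 0.0546 for CYP1B1 and 0.0780 for AHR), a fit chosen after seeing the data, which left 0 of 8. With 1 block shared by both lines they stayed called (0.0252 and 0.0403). Both were sensitive to single libraries. CYP1B1 lost its call without any 1 of WT day 0 replicate 1, the 3 WT day 4 libraries, UHRF1-AID day 0 replicates 2 and 3 or UHRF1-AID day 4 replicate 1 (adjusted p 0.0523 to 0.0931). AHR lost its call without any 1 of WT day 0 replicates 1 and 2, WT day 4 replicates 1 and 2, UHRF1-AID day 0 replicates 1 and 3 or UHRF1-AID day 4 replicate 3 (adjusted p of up to 0.0685, or a difference below the fold minimum). CYP1A1 had the largest difference, 1.69 ± 0.68, and a wide interval (0.21 to 3.18, adjusted p = 0.212). Without the low UHRF1-AID day 4 replicate 1 it was 2.13 and was called (adjusted p = 0.00622), and it was also called with no filter on low counts. In this pair of lines the alignment folder changed with day in WT only, so folder and line cannot be told apart. The plot of differences between day effects shows the 3 lines side by side.

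**Figure D4:**
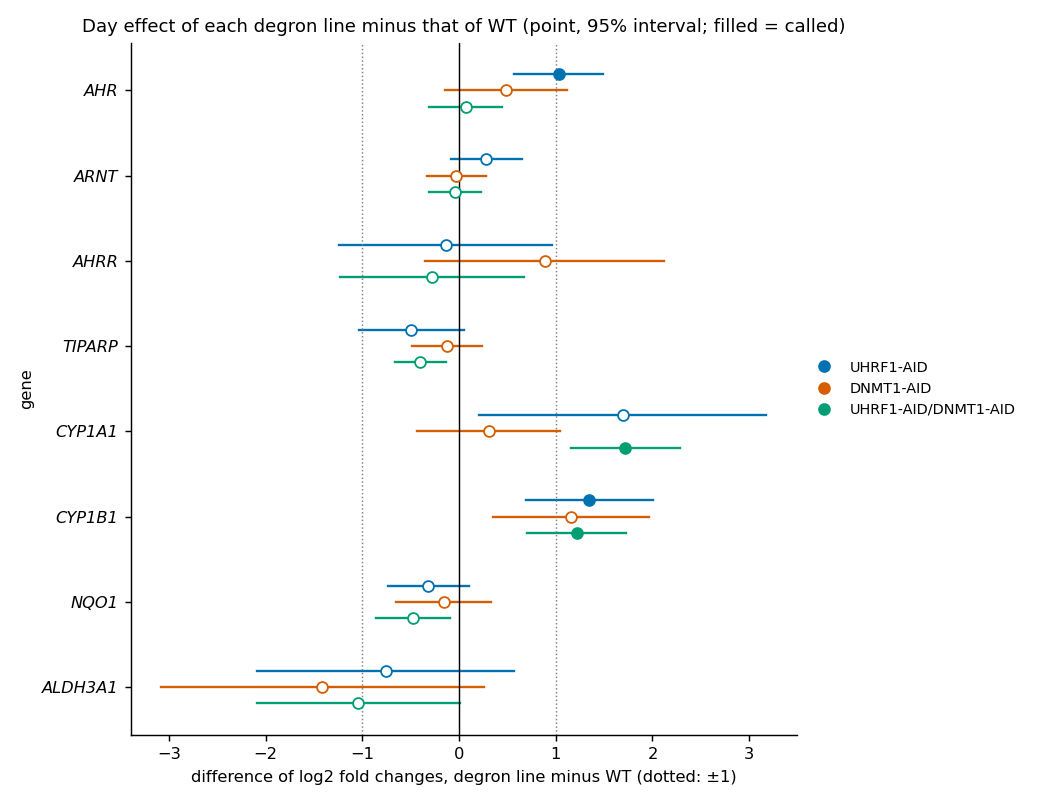
Difference between the day effect of each degron line and that of WT (log2 scale, 95% intervals from edgeR, filled points for called genes) for the 8 genes tested. CYP1B1 lies between 1.16 and 1.35 in all 3 degron lines, and CYP1A1 at 0.30 in DNMT1-AID, 1.69 in UHRF1-AID and 1.72 in the double degron line.

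Before auxin, none of the 8 genes was called in edgeR or in DESeq2 between a degron line and WT. In edgeR, 4 were at an unadjusted p under 0.05 in the double degron line, 1 in UHRF1-AID and 0 in DNMT1-AID. Over all genes, 2836 of 14023 were at that unadjusted p in the double degron line, 512 of 13894 in UHRF1-AID and 711 of 13833 in DNMT1-AID. Called genes made up 1.31% of all genes in the double degron line, 0.00723% in DNMT1-AID and 0% in UHRF1-AID. AHR was higher in UHRF1-AID/DNMT1-AID than in WT (26.8 ± 2.5 against 17.3 ± 1.0 CPM, SD, n = 3), a log2 difference of 0.61 ± 0.12 with an adjusted p of 0.0342, when 1.53% of genes were higher at that threshold. This p was 0.0697 with the replicate block, and up to 0.166 without single libraries (without WT day 0 replicate 1 or 2, or any 1 of the 3 UHRF1-AID/DNMT1-AID libraries). AHRR in UHRF1-AID was at 8.92 ± 1.33 CPM against 4.44 ± 1.97 CPM in WT (0.99 ± 0.34, adjusted p = 0.942), with groups that did not overlap, as held for 10.9% of all genes. In the double degron line AHRR was at 8.07 CPM (0.82 ± 0.34, adjusted p = 0.225) and ALDH3A1 at 1.99 CPM against 1.16 CPM in WT (0.76 ± 0.31, adjusted p = 0.215). Libraries that did not overlap at day 0 made up 9.8% of genes in DNMT1-AID, with none of the 8 among them, and 28.1% in UHRF1-AID/DNMT1-AID, with AHR, AHRR and TIPARP among them (TIPARP -0.37 ± 0.10, adjusted p = 0.0840, and 0.00743 without WT day 0 replicate 3). CYP1A1 at day 0 lay between 2.13 and 4.79 CPM and CYP1B1 between 1.09 and 3.02 CPM over all 12 libraries.

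The genes around the receptor were read from lists of pathway members. In the cytoplasmic complex, HSP90AA1 and HSP90AB1, the 2 cytosolic HSP90 genes, were called lower in all 4 lines. Over all genes tested, 6.53% were called lower in WT, 6.68% in DNMT1-AID, 9.82% in UHRF1-AID and 11.5% in the double degron line. In WT, HSP90AA1 fell from 4410 to 1862 CPM (log2 fold change -1.24 ± 0.12) and HSP90AB1 from 6354 to 2789 CPM (-1.18 ± 0.13). The falls were -1.49 and -1.59 in the double degron line, -1.01 and -1.43 in UHRF1-AID, and -1.58 and -1.54 in DNMT1-AID. PTGES3 was not called in any line, with log2 fold changes of -0.24 ± 0.13 in WT, -0.50 ± 0.12 in DNMT1-AID, -0.58 ± 0.11 in UHRF1-AID and -0.38 ± 0.08 in the double degron line. Of the 4 genes listed for this complex, 1 in each degron line was lower at an adjusted p under 0.05 within the fold minimum. In the double degron line 1 was higher in that way, and in WT 0 passed so in either direction. Of 5 other bHLH-PAS factors (ARNT2, BMAL1, HIF1A, SIM2 and NPAS2), none was called in any line by edgeR. Within the fold minimum, 1 was lower at an adjusted p under 0.05 in each line, and 1 was higher in UHRF1-AID and in the double degron line. At that p and any fold, 32.5% of all genes were lower and 35.2% higher in the double degron line. The medians of the 5 factors lay between -0.36 and 0.26, beside medians between -0.03 and 0.02 over all genes tested.

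Further genes known to respond to AHR in other cells did not rise as a list. Of 15, 8 were tested, and 0 were called higher and 2 lower in WT, 1 and 2 in DNMT1-AID, 1 and 3 in UHRF1-AID, and 0 and 3 in the double degron line. Over all genes tested, 5.37% were called higher and 6.53% lower in WT, 8.62% and 6.68% in DNMT1-AID, 12.1% and 9.82% in UHRF1-AID, and 15.1% and 11.5% in the double degron line. Those called lower were the amino acid transporter SLC7A5 (from 1094 to 328 CPM in WT, log2 fold change -1.73 ± 0.19), the stanniocalcin STC2 (-1.23 ± 0.17 in WT), the growth factor EREG (-2.47 ± 0.13 in UHRF1-AID/DNMT1-AID) and HES1, a Notch target (-1.17 ± 0.15 in UHRF1-AID/DNMT1-AID). Those called higher were FOS in UHRF1-AID (1.61 ± 0.23, adjusted p = 0.000584) and CYP2S1, a further cytochrome P450, in DNMT1-AID (from 15.1 to 36.7 CPM, adjusted p = 0.000549). The list's medians were -0.62 in WT, -0.49 in DNMT1-AID, -0.20 in UHRF1-AID and -0.43 in the double degron line. UGT1A1, from the locus of UGT1A6, was among the 7 genes too low to test, together with GSTA1, GSTA2, SERPINB2, IDO1, VAV3 and IL1B.

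Targets of NRF2, which share NQO1 with the receptor, moved in both directions. Of 25 genes, 20 to 23 were tested, and 1 was called higher and 2 lower in WT, 2 and 3 in DNMT1-AID, 4 and 2 in UHRF1-AID, and 5 and 4 in the double degron line, beside the same shares over all genes (5.37% and 6.53% in WT, up to 15.1% and 11.5% in the double degron line). Called in all 4 lines were AKR1C3, an aldo-keto reductase, which was higher (1.73 ± 0.23 in WT and 2.85 ± 0.31 in UHRF1-AID/DNMT1-AID), and ABCC2, an efflux pump, which was lower (-2.00 ± 0.18 in WT and -3.33 ± 0.15 in UHRF1-AID/DNMT1-AID). AKR1C1, a close paralogue, was called higher in UHRF1-AID (mean 0.0172 CPM at day 0 and 1.23 CPM at day 4) and in the double degron line (0.0583 and 1.23 CPM). The genes of this family are near-identical, so their counts are uncertain. Also called higher were EPHX1, an epoxide hydrolase, in UHRF1-AID (1.00 ± 0.11), OSGIN1 in DNMT1-AID (1.02 ± 0.27) and the sulfiredoxin SRXN1 in the double degron line (1.47 ± 0.11). GCLM, a subunit of the enzyme that starts glutathione synthesis, was called lower in DNMT1-AID (-1.27 ± 0.13) and the double degron line (-1.13 ± 0.11), as was the transketolase TKT (-1.33 ± 0.12 and -1.48 ± 0.09). GSTM3 had no count in the day 0 libraries of UHRF1-AID/DNMT1-AID and a mean of 2.84 CPM at day 4. The cystine transporter SLC7A11 was called lower in WT (-1.76 ± 0.23), in UHRF1-AID (-1.84 ± 0.51) and in UHRF1-AID/DNMT1-AID (-1.21 ± 0.16). The medians of the list were 0.01 in WT, -0.39 in DNMT1-AID, -0.11 in UHRF1-AID and -0.07 in the double degron line. Of 5 heat shock genes, read as a stress check, HSPA1B was called higher in WT (1.35 ± 0.18), HSPA1A was called higher in UHRF1-AID (1.23 ± 0.43), and HSPH1 was called lower in DNMT1-AID (-1.27 ± 0.19) and the double degron line (-1.67 ± 0.09). Over all genes, 5.37% were called higher in WT and 12.1% in UHRF1-AID, and 6.68% were called lower in DNMT1-AID and 11.5% in the double degron line. Before auxin, 2 of the 5 heat shock genes were already called higher in the double degron line than in WT (list median 0.71). Of all genes, 1.31% were called there in either direction.

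**Figure D5:**
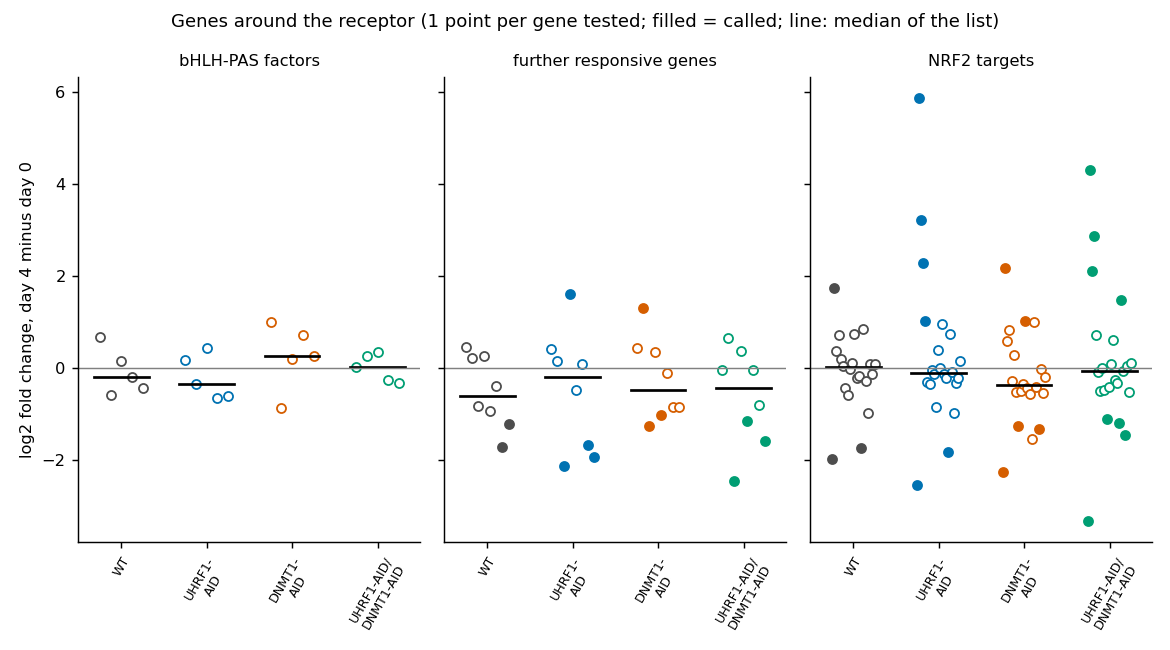
Log2 fold change of day 4 against day 0 for genes of 3 lists around the receptor, by line, with 1 point per gene tested, filled points for called genes and a line at the median of the list (GSTM3 in UHRF1-AID/DNMT1-AID, with no day 0 count, is not drawn). The medians of the further responsive genes lie between -0.62 and -0.20, and those of the bHLH-PAS factors between -0.36 and 0.26.

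The genes whose level followed each member most closely over the 24 libraries differed between members. Pearson's r of log2(CPM + 1) was computed over 12965 genes with a mean of at least 1 CPM, as a description, since the libraries share days, lines and depth. CYP1A1 was followed by IL32 (0.945), MX1 (0.939) and NOTUM (0.931), and CYP1B1 by SLC12A4 (0.979), IRF7 (0.978) and SEMA6C (0.974). MX1 and IRF7 are interferon-stimulated genes. TIPARP was followed by IDS (0.976), NIPAL2 (0.972) and GAS6 (0.971), and AHRR by SLC29A4 (0.974), TMEM127 (0.967) and CAPN5 (0.960). No gene appeared in more than 1 of these 4 lists of 3. With so few taken from 12965 genes, that cannot show whether the members followed different patterns.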

How the data were processed

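The authors sequenced polyadenylated RNA as paired reads, removed adapters (Trimmomatic), used STAR for alignment to the hg38 genome and obtained 1 read count per gene from featureCounts. The strand setting and the treatment of reads shared by genes are not given in the sources used here. The deposited tables hold raw counts of 58735 genes in each of 24 libraries, with a gene length column that was used for levels per kilobase, and 92 spike-in rows that were kept out of library sizes and tests. Gene names came from the reference table (58207 matched).

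Groups were taken from the sample labels. Counts were analysed in R 4.3.3 with edgeR 4.0.16 (filterByExpr, trimmed mean of M-values, robust quasi-likelihood test) on the 6 libraries of each pair of groups or the 12 libraries of each difference between day effects, with Benjamini-Hochberg adjustment over all genes tested. Calls needed an adjusted p below 0.05 together with a log2 fold change beyond 1 in either direction, the thresholds of the study's methods. No pseudocount enters the tests, and a pseudocount of 1 was used for correlations. Library totals of 15824804 to 25073821 counts limit precision for genes under about 1 CPM, and counts cover sampling error only. The test was checked on simulated counts. Alternatives were DESeq2 1.42.0, RLE scaling, other filters and thresholds, all 24 libraries in 1 fit, removal of the gene length trend, the replicate number as a block, and each library left out in turn.

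Replicate numbers were shared between groups. Samples of the same number deviated together in UHRF1-AID between day 0 and day 4 (correlations of deviations 0.288, 0.176 and 0.156). They did so more weakly in UHRF1-AID/DNMT1-AID (0.0871, 0.0971 and 0.0956, against at most -0.0187 for other numbers). In no other comparison did all 3 same-number correlations exceed those with other numbers (same-number values -0.715 to 0.109). The tests reported above took no account of this pairing, and the replicate block was run only as an alternative. No 2 libraries of a group agreed within sampling noise (chi-square per degree of freedom 3.71 to 64.3).

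All 10 genes were named in full. The genes, the pathway lists and the tests were chosen with earlier results of these data known. Of the lists, each day comparison names up to 3 called genes higher and 3 lower, ranked by p, and the 3 genes most correlated with each of 4 members are named. PTGES3, the bHLH-PAS factors and the untested AHR-responsive genes were named after their values were seen, and 1 gene of the lists is not reported here. Promoter sequences are from RefSeq (GRCh38.p14) and stretches further upstream from the hg38 genome.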

Additional observations from a re-analysis of the deposited data

Results flagged for a closer look

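The day effect differed between a degron line and WT, by edgeR's quasi-likelihood test of the difference itself, for 5 values. CYP1A1 (1.72) and CYP1B1 (1.22) rose by more in UHRF1-AID/DNMT1-AID than in WT on the log2 scale, while the day effect of TIPARP was smaller there (-0.40). CYP1B1 (1.35) and AHR (1.03) had a higher day effect in UHRF1-AID than in WT, and both values lost the threshold without single libraries, as given above, and with the replicate number as a block within each line (adjusted p = 0.0546 and 0.0780). The adjusted p of the 5 values was 0.000821, 0.00376, 0.0375, 0.0306 and 0.0220. Groups of 3 libraries are too small for a test of single outlying libraries.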

How the results depend on the processing

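Of 1362 values of the 80 results for single genes under alternatives, 1274 kept their direction and their side of the threshold, 30 lost the threshold, 15 gained it and 43 changed sign. The sign changed for differences that were not called. AHR in UHRF1-AID between days (0.01) became -0.00094 with RLE scaling, -0.013 with no filter, -0.028 with all 24 libraries in 1 fit and -0.00033 with DESeq2. The day effect of ARNT in UHRF1-AID/DNMT1-AID minus WT (-0.04) became 0.016 with RLE scaling, 0.013 with at least 10 counts in every library, 0.016 with DESeq2 and 0.031 with the length trend removed. Removing that trend also gave -0.027 for ARNT and -0.031 for AHR in UHRF1-AID against WT at day 0, -0.027 for NQO1 in UHRF1-AID/DNMT1-AID and 0.033 for AHRR in DNMT1-AID. Leaving out single libraries moved values across 0 as follows. AHR ranged from -0.091 to 0.13 in UHRF1-AID between days. Differences of day effects from WT ranged from -0.41 to 0.19 (AHRR, UHRF1-AID), -0.076 to 0.027 (ARNT, DNMT1-AID), and, for UHRF1-AID/DNMT1-AID, -0.080 to 0.019 (ARNT), -0.51 to 0.057 (AHRR) and -0.0070 to 0.15 (AHR). Day 0 differences of UHRF1-AID from WT ranged from -0.25 to 0.12 (CYP1B1), -0.096 to 0.093 (AHR), -0.039 to 0.050 (ARNT), -0.070 to 0.26 (TIPARP), -0.54 to 0.13 (ALDH3A1) and -0.053 to 0.37 (CYP1A1), those of DNMT1-AID from -0.58 to 0.22 (AHRR), -0.14 to 0.061 (TIPARP) and -0.23 to 0.24 (AHR), and that of NQO1 in UHRF1-AID/DNMT1-AID from -0.079 to 0.16. The cause was not tested, apart from the smaller number of libraries. CYP1A1 in UHRF1-AID between days had an adjusted p of 0.0781 with no filter on low counts.

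Of the 8 genes, the number called changed by over 1.5 times as follows. In DNMT1-AID between days it ran from 3 to 5 without single libraries. For the day effect of UHRF1-AID minus WT it was 2, and 0 at an adjusted p under 0.01, 0 with the replicate number as a block within each line (chosen after seeing the data) and 0 to 2 without single libraries. For DNMT1-AID minus WT it was 1 with no filter, and for UHRF1-AID/DNMT1-AID against WT at day 0 it was 1 with no minimum fold. Over all genes, the number called moved from 1618 to 4841 (WT), 3149 to 7114 (UHRF1-AID), 2119 to 5590 (DNMT1-AID) and 3903 to 9960 (UHRF1-AID/DNMT1-AID) with no minimum fold, and to 2595 in the last with at least 10 counts in every library. The differences of day effects from WT ranged over alternatives from 81 to 762 genes called for UHRF1-AID (337 as reported), 2 to 595 for DNMT1-AID (20) and 442 to 2292 for UHRF1-AID/DNMT1-AID (813), and the day 0 comparisons from 0 to 10 (0), 0 to 5 (1) and 30 to 510 (184).

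With the replicate block, the pairing of libraries by number, AHRR in WT (1.88, adjusted p = 0.0967), AHR in UHRF1-AID/DNMT1-AID at day 0 (adjusted p = 0.0697) and ALDH3A1 in DNMT1-AID (-1.98, adjusted p = 0.0741) lost the p threshold, as did the difference of day effects of TIPARP in UHRF1-AID/DNMT1-AID (adjusted p = 0.0743). Within each line the block also took CYP1B1 (1.33, adjusted p = 0.0546) and AHR (1.04, adjusted p = 0.0780) in UHRF1-AID minus WT below it. The block moved no other value of the 8 genes across its threshold. In UHRF1-AID between days, the block gave 1.65 ± 0.14 for TIPARP, 1.71 ± 0.17 for AHRR, 3.09 ± 0.18 for CYP1B1 and 2.40 ± 0.35 for CYP1A1. The number of genes called for UHRF1-AID minus WT was 201 with the block and 121 with the block within lines, and that for DNMT1-AID minus WT was 12 and 8. Depth limits CYP1A2, UGT1A6 and ALDH3A1, which had few or no counts.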
